A study of Odorrana tormota with 4 samples.

Results

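Brain expression of 3 neurotrophic factors (*BDNF*, *NTF3* and *GDNF*) and 5 of their receptors (*NTRK2*, *NTRK3*, *NGFR*, *RET* and *GFRA1*) was examined in the concave-eared frog *Odorrana tormota*. The members were chosen by name: a unigene, that is a transcript assembled without a genome, was taken when the gene symbol of its best Swiss-Prot match was one of these 8, and unigenes whose best match in the NR protein database was a chicken or a turkey were to be dropped. This gave 10 of the 197684 unigenes of the deposited table, none of which had to be dropped, and the 8 genes stood among 16911 gene symbols. Of the 10 unigenes, 9 had an amphibian protein as their best NR match. A gene's level is given as FPKM, fragments per kilobase of unigene scaled to the size of the library, summed over its unigenes.

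The 4 libraries were pools of brain RNA from wild adult frogs. M1 and M2 each held 4 males and F1 and F2 each held 2 females, so there were n = 2 pools per sex, and the number of frogs per pool cannot be told apart from sex. The labels name no treatment, and all animals came from one locality and one month. The study compared the sexes because males of this species, but not females, hear ultrasound.

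The neurotrophins are secreted proteins that keep neurons alive, guide the growth of their processes and, in the adult brain, adjust synapses. BDNF acts on the receptor tyrosine kinase TrkB (*NTRK2*) and neurotrophin-3 (*NTF3*) mainly on TrkC (*NTRK3*), while the p75 receptor (*NGFR*) binds all neurotrophins and their uncut precursors. GDNF belongs to another family: it binds the surface protein GFRA1, which lacks a part inside the cell, and the pair then engages the kinase RET. These roles were worked out mainly in mammals and chicken, with parts of them shown in *Xenopus*.

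The libraries had similar totals, and F1 and F2 lay at opposite ends in pituitary and muscle transcripts. FPKM values summed to between 669260 and 717478 per library. Each of 9 neuronal markers found, except *ELAVL4*, was above 0 in all 4 pools, with a summed level of 1923 to 2315 FPKM in the female and 2335 to 2402 FPKM in the male pools. Pituitary markers summed to 84.7 FPKM in F1 and 6683 in F2, against 1087 and 1610 FPKM in M2 and M1. Skeletal muscle markers summed to 2.47 FPKM in F1 and 355 in F2, against 8.04 and 21.1 FPKM in M1 and M2. Skin and gland markers were lowest in F1 (37.7 FPKM) and M2 (77.1 FPKM) and higher in F2 (249 FPKM) and M1 (387 FPKM). Read counts were not used here. Read totals as the paper gives them were similar between libraries, and the reads behind single values were not worked out.

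*NTRK2* had the highest level of the 8 genes in every pool. Its single unigene (comp228629_c0_seq7, 5638 bp) matched the TrkB protein of *Xenopus laevis*. The female pools F1 and F2 had 88.7 and 68.3 FPKM, the male pools M1 and M2 57.6 and 64.2 FPKM, and 94.1% of the 11975 genes tested had a lower mean. Both female pools lay above both male pools, and F1 lay furthest from the rest. *NTRK3* was carried by a unigene of 2337 bp and a shorter one of 978 bp, the latter with a python protein as its best NR match. Summed, *NTRK3* had 19.2 (F1) and 17.1 FPKM (F2) in females against 14.0 (M1) and 17.8 FPKM (M2) in males. The short unigene held 6.85% of that sum, and the sexes overlapped.

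*BDNF* was the most abundant of the 3 factors. Its unigene (comp109998_c0_seq2, 1625 bp) matched the *Xenopus tropicalis* protein. F1 had 23.2 FPKM and F2 15.5 FPKM, against 10.3 FPKM for M1 and 14.7 FPKM for M2. Both female pools were thus above both male pools, but F2 was closer to M2 than to F1. *NTF3*, whose unigene of 2414 bp matched neurotrophin-3 of the bullfrog *Rana catesbeiana*, was far lower, with 1.60 FPKM (F1) and 0.839 FPKM (F2) in females and 1.12 FPKM (M1) and 0.717 FPKM (M2) in males. Its sexes overlapped.

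*NGFR* was carried by a pair of unigenes with different frog matches. The longer one (comp244187_c0_seq4, 7390 bp) matched the p75 receptor a-1 of *X. laevis* and held 83.0% of the gene's level, and the other (comp235550_c1_seq1, 1795 bp) matched a receptor precursor of *X. tropicalis* and held 17.0%. The longer one was between 5.48 and 6.37 FPKM and the shorter one between 0.978 and 1.40 FPKM. Summed, the females had 7.25 (F1) and 6.88 FPKM (F2) and the males 7.01 (M1) and 7.76 FPKM (M2), a narrow range in which the sexes overlapped.

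In the GDNF system the binding receptor was abundant, whereas the factor and the kinase were near the lower end of the data. *GFRA1* (comp219222_c1_seq1, 1867 bp) had 25.0 FPKM in F1 as in M2, and 27.6 FPKM in F2 as in M1. *RET* (comp235952_c2_seq6, 4673 bp) had 1.01 (F1) and 1.13 FPKM (F2) in females against 1.57 (M1) and 1.24 FPKM (M2) in males, so that the sexes were separated by a small margin. *GDNF* (comp193307_c0_seq1, 1760 bp) varied most, from 0.175 FPKM in F1 to 0.855 FPKM in F2, with M1 (0.504 FPKM) and M2 (0.475 FPKM) in between. It was below 1 FPKM in every pool and so was the only one of the 8 genes left out of the test.

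**Figure D1:**
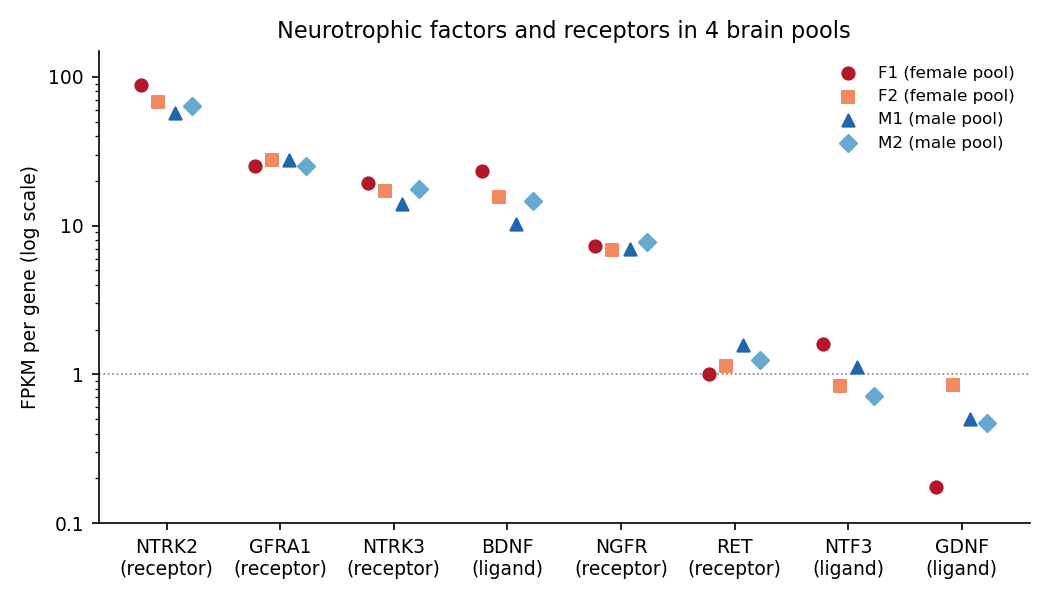
FPKM per gene (log scale) of the 8 genes in the 4 brain pools, 1 point per pool, ordered by the mean over the pools; the dotted line marks 1 FPKM. *NTRK2* was between 57.6 and 88.7 FPKM in every pool, *GFRA1* between 25.0 and 27.6 FPKM, and *GDNF* below 1 FPKM in all 4.

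By mean level the genes ranked *NTRK2*, *GFRA1*, *NTRK3*, *BDNF*, *NGFR*, *RET*, *NTF3* and *GDNF*. The ranges of the pools did not overlap between *NTRK2* and *GFRA1*, between *GFRA1* and *NTRK3*, between *BDNF* and *NGFR* or between *NGFR* and *RET*. They did overlap for *NTRK3* and *BDNF*, with *NTRK3* the higher in 3 of 4 pools, for *RET* and *NTF3* (3 of 4) and for *NTF3* and *GDNF* (3 of 4). FPKM is a level per length, but unigenes that cover a transcript in part can shift such an order.

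Within each pool *NTRK2* was above *BDNF*, *NTRK3* above *NTF3*, and both *GFRA1* and *RET* above *GDNF*, whereas *NGFR* was below *BDNF* and above *NTF3*. The level of *NTRK2* was 3.82 (F1) and 4.40 (F2) times that of *BDNF* in females and 5.58 (M1) and 4.37 (M2) times in males. The ratio varied less than *BDNF* itself, since both genes were highest in F1 and lowest in M1. *NTRK3* was 12.0 to 24.8 times as abundant as *NTF3*, with F1 and M1 at the low end and F2 and M2 at the high end, so that this ratio did not follow sex. *NTRK2* was 12.2 and 9.93 times as abundant as *NGFR* in F1 and F2 and 8.21 and 8.27 times in M1 and M2. *GFRA1* exceeded *RET* 24.7- and 24.3-fold in F1 and F2 and 17.5- and 20.1-fold in M1 and M2. The ratio of *GFRA1* to *GDNF* ran from 32.2 in F2 to 143 in F1, a spread within one sex over which *GFRA1* itself hardly moved. That spread rests on low values of *GDNF*, 0.855 FPKM in F2 and 0.175 FPKM in F1. *NTF3*, at 0.717 to 1.60 FPKM, was also a low denominator.

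**Figure D2:**
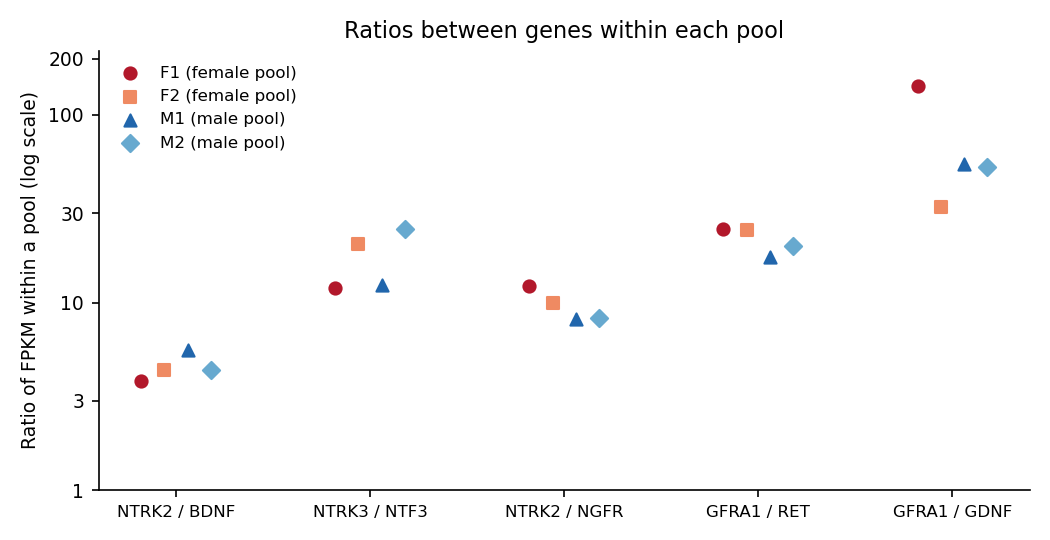
Ratios of FPKM between 2 genes within each pool (log scale), 1 point per pool. *NTRK2* over *BDNF* lay between 3.82 and 5.58, while *GFRA1* over *GDNF* differed more between F1 (143) and F2 (32.2) than between the sexes. *GDNF* was below 1 FPKM in every pool.

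None of the 7 genes tested was called different between the sexes. log2(FPKM + 0.5) was fitted with limma across 11975 genes that had at least 1 FPKM in at least 2 pools, and p-values were adjusted over all of them. The fit called 0 genes (0%) at an adjusted p under 0.05, the smallest being 0.0538, and the same fit on 51457 single unigenes also called 0 (0%). At an unadjusted p under 0.05 there were 674 genes higher in females (5.63%) and 812 higher in males (6.78%), and none of the 7 was among them. Over 2-fold between the sex means of FPKM + 0.5 were 229 genes on the female side (1.91%) and 493 on the male side (4.12%), again with none of the 7. With 2 pools per sex the smallest p of an exact permutation test would be 0.333. In whole brain RNA, fewer cells of a type and less RNA per cell cannot be told apart.

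*BDNF* and *NTRK2* had the largest differences of the 7. The mean of *BDNF* was 19.4 ± 5.43 FPKM in females and 12.5 ± 3.09 FPKM in males (SD, n = 2 pools each), a ratio of 1.55. On the log2 scale the difference, female minus male, was 0.61 (SE 0.27), with an adjusted p of 0.455 in limma and a 95% interval from -0.11 to 1.32. The interval thus reaches from slightly lower in females to over 2-fold higher. Without F1 the log2 difference was 0.32, without F2 0.89, without M1 0.36 and without M2 0.85.

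The mean of *NTRK2* was 78.5 ± 14.5 FPKM in females and 60.9 ± 4.64 FPKM in males (SD, n = 2 pools each), a ratio of 1.29. The log2 difference was 0.35 (SE 0.16, adjusted p = 0.461 in limma), with a 95% interval from -0.07 to 0.78. It was 0.17 without F1 and 0.54 without F2, so that F1 set much of its size, and 0.28 and 0.43 without M1 and M2. Both female pools lay above both male pools for these 2 of the 7 genes and for 23.6% of all genes tested. The reverse order held for *RET* alone, and for 20.9% of all genes.

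For the other 5 genes tested the differences were smaller, and their intervals included 0 as those of *BDNF* and *NTRK2* did. The log2 difference was 0.26 (SE 0.34) for *NTF3*, with a 95% interval from -0.64 to 1.15, and 0.20 (SE 0.16) for *NTRK3*, with an interval from -0.23 to 0.63. It was -0.27 (SE 0.24) for *RET*, with an interval from -0.90 to 0.35. *NGFR* had -0.06 (SE 0.15) and an interval from -0.45 to 0.33. *GFRA1* was nearly the same in both sexes, with means of 26.3 FPKM in each and an interval from -0.31 to 0.31. Adjusted p-values of these 5 lay between 0.679 and 0.999 in limma. The 2 unigenes of *NGFR* had log2 differences of -0.06 and -0.07, and those of *NTRK3* had 0.15 (2337 bp) and 0.63 (978 bp, SE 0.43).

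**Figure D3:**
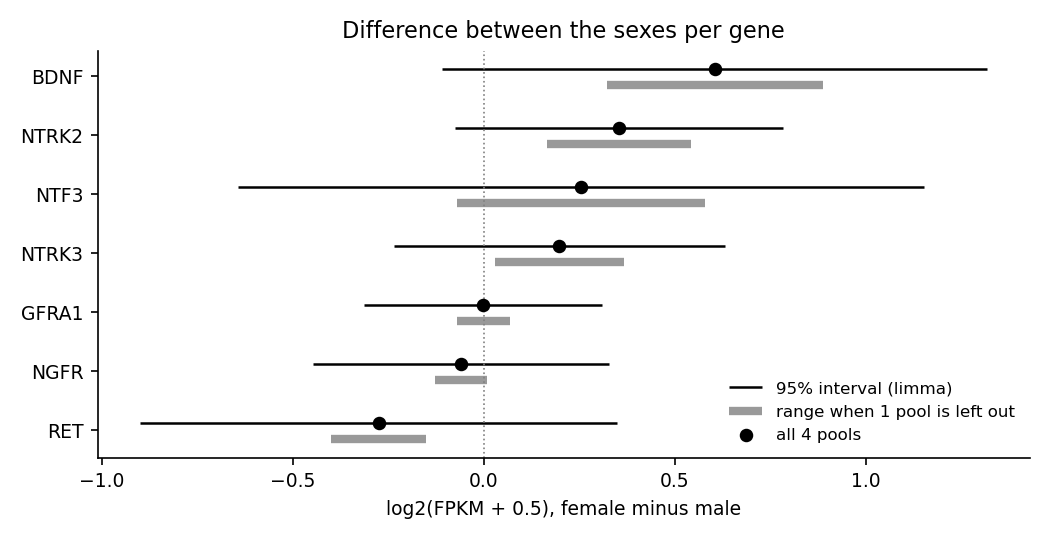
Difference between the sexes on the log2(FPKM + 0.5) scale, female minus male, for the 7 genes tested; points and black lines are the estimate from all 4 pools and its 95% interval, and grey bars span the values obtained when 1 pool was left out. All 7 intervals include 0, and the grey bars of *BDNF* (0.32 to 0.89) and *NTRK2* (0.17 to 0.54) stay above it.

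The pools of one sex also differed from each other in these genes. *BDNF* was 1.49 times as high in F1 as in F2 and 0.703 times as high in M1 as in M2. *NTF3* was 1.91 times as high in F1 as in F2 and 1.57 times as high in M1 as in M2, which is more than the ratio of 1.33 between the sex means. *BDNF*, *NTRK2* and *NTRK3* shared the order of the extreme pools, with F1 the highest and M1 the lowest. This was the case for 3 of the 7 genes and for 11.7% of all genes tested, a pattern chosen after the values were seen.

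The tested genes whose profile over the 4 pools was most like that of *BDNF* were *KCTD5*, *CNKSR2*, *OVCA2*, *NUMBL* and *MSANTD1*. Likeness was the root mean square distance between log2 values centred over the pools, and it was 0.0284 for *KCTD5* and 0.0491 for *MSANTD1*. *CNKSR2*, a scaffold protein of the postsynaptic density, ran from 21.9 FPKM in F1 over 14.1 (F2) and 14.0 FPKM (M2) to 9.27 FPKM in M1, close to *BDNF* in level as well. *NTRK2* ranked 244 of 11974 by this distance (0.185), *NTRK3* 832 (0.254) and *RET* 9189 (0.565). Ranked by distance from *NTRK2* instead, *BDNF* was only 2367 of 11974, and *NTRK3* was 790 (0.126). Both rankings rest on 4 pools and have no test.

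Markers of cells that carry these receptors were set beside the values. In mammals TrkB is made by neurons and, in a form without the kinase, by astroglia. The 7 astroglial and radial glial markers found summed to 1466 and 1512 FPKM in the female and 999 and 1118 FPKM in the male pools, and none was at 0. Most of that sum was glutamine synthetase (*GLUL*), which was between 982 and 1005 FPKM in the female and between 556 and 619 FPKM in the male pools. The glutamate transporter *SLC1A3* followed the order F1 (240 FPKM), F2 (217), M2 (197) and M1 (180), the same order of the pools as *NTRK2*. The list did not move as one: *FABP7*, a fatty acid binding protein of radial glia, had 217 (F1) and 224 FPKM (F2) against 225 (M1) and 266 FPKM (M2), and *VIM* had a log2 difference of -0.60 with overlapping pools. These 4 glial genes were named after their values were seen. Neuronal markers leaned the other way, with all 8 tested at a negative log2 difference and a median of -0.21. Among them *ENO2* (-2.375) and *STMN2* (-0.27) had no unigene with an amphibian match. The summed neuronal level was 2315 FPKM in F1, close to M1 (2335) and M2 (2402), and 1923 FPKM in F2. The part of these cell types in the *NTRK2* and *BDNF* values was not tested.

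In mammals *RET*, *GFRA1* and *NGFR* are found in, among others, cholinergic motor neurons, dopaminergic neurons and the glia and sensory neurons of nerve stumps. Cholinergic and motor neuron markers (6 found) summed to 38.0 (F1) and 50.6 FPKM (F2) in females against 48.6 (M1) and 34.8 FPKM (M2) in males, with *MNX1* listed at 0 in 1 pool. The 8 dopaminergic markers summed to 22.8 (F1) and 31.6 FPKM (F2) against 33.4 (M1) and 24.9 FPKM (M2). The 5 Schwann cell markers found summed to 15.97 (F1) and 17.4 FPKM (F2) against 23.7 (M1) and 18.0 FPKM (M2). Sensory ganglion markers summed to 85.7 (F1) and 75.7 FPKM (F2) against 77.3 (M1) and 63.5 FPKM (M2). *RET* was higher in M1 than in M2, as were 10 of the 13 marker sums computed over all cell types and tissues, and the part of these cells in its values was not tested. *GFRA1* and *NGFR* stayed within 25.0 to 27.6 and 6.88 to 7.76 FPKM. Pituitary and muscle markers differed between F1 and F2 by the amounts given above. The part of these tissues in the *GFRA1* and *NGFR* values was not tested.

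Other genes of the neurotrophic pathways were taken from 8 lists that together held 187 genes besides the 8, of which 166 had a unigene and 143 were tested. None was called. At an unadjusted p under 0.05, 9 were higher in females and 8 in males, beside 5.63% and 6.78% of all genes. Over 2-fold apart were 4 on the female and 2 on the male side, beside 1.91% and 4.12% of all genes. The median log2 difference of the 143 was 0.05, against 0.02 over all genes tested and 0.20 over the 7 members tested.

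Of 14 other ligands, 6 were tested and 6 of the rest had values too low for the test. Among the classical ones, neurotrophin-4 (*NTF4*), named after its level was known, was at most 0.381 FPKM in any pool. The most abundant ligand was midkine (*MDK*), a heparin-binding growth factor, with 96.6 to 136 FPKM.

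*MANF*, a protein of the endoplasmic reticulum that is induced when proteins misfold and that also acts as a secreted survival factor, had the smallest adjusted p of all the pathway genes. F1 and F2 had 36.6 and 39.3 FPKM, M1 and M2 18.0 and 22.4 FPKM. The sexes did not overlap, and the log2 difference was 0.90 (SE 0.14, adjusted p = 0.0852 in limma). Neither of its 2 unigenes had an amphibian protein as its best match. The log2 difference was between 0.75 and 1.05 when 1 pool was left out.

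Of 18 other receptors and co-receptors, 13 were tested, with a median log2 difference of -0.18. The male pools exceeded the female ones without overlap for 8 of them and the reverse held for 1, beside shares of 20.9% and 23.6% over all genes. *SORT1* and *GFRA4*, named after their values were seen, had the smallest p-values. Sortilin (*SORT1*), which together with p75 binds uncut neurotrophins, had 15.5 (F1) and 15.4 FPKM (F2) against 22.3 (M1) and 22.1 FPKM (M2), and its log2 difference was -0.51 (SE 0.11, adjusted p = 0.161 in limma). *GFRA4*, a relative of *GFRA1* that binds persephin, had 16.5 (F1) and 15.9 FPKM (F2) against 22.6 (M1) and 22.8 FPKM (M2), and its log2 difference was -0.47 (SE 0.11, adjusted p = 0.185 in limma). In both genes the pools of one sex differed far less than the sexes did. The most abundant were the syndecan *SDC3*, at 101 to 149.5 FPKM, and *NCAM1*, a cell adhesion molecule that can serve as a GDNF receptor together with GFRA1 in mammals, at 53.5 to 68.7 FPKM. *NCAM1* thus exceeded *RET* in every pool.

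The genes that process and release neurotrophins varied little. Of 12 tested, none had an unadjusted p under 0.05. The prohormone convertase *PCSK2* was between 97.0 and 99.7 FPKM in all 4 pools, and carboxypeptidase E (*CPE*), a sorting receptor for BDNF in mammals, between 337 and 443 FPKM. Neuroserpin (*SERPINI1*), an inhibitor of tissue plasminogen activator, which frees plasmin to cut proBDNF, was the most abundant of the list, at 654 to 709 FPKM.

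Downstream of the receptors, 28 adaptors of Trk and RET had a median log2 difference of 0.03, and 26 members of the Ras-MAPK and PI3K-AKT chain had 0.12. *KIDINS220*, a scaffold that binds Trk receptors, was between 74.6 and 90.8 FPKM and *GRB2* between 51.2 and 55.6 FPKM. The adaptor *CRK* was the only gene of these lists over 2-fold apart, with 3.02 (F1) and 3.81 FPKM (F2) against 1.60 (M1) and 0.744 FPKM (M2). Its log2 difference was 1.27 (SE 0.33, adjusted p = 0.261 in limma). The kinase *MAP2K1* had 283 (F1) and 224 FPKM (F2) against 162 (M1) and 255 FPKM (M2), highest in F1 and lowest in M1 as *BDNF* was. That order held for 17 of the 143 pathway genes tested (11.9%), beside 11.7% of all genes. It held for 0 of the 6 other ligands and 0 of the 13 other receptors tested. Of 23 partners of *NGFR* tested the median was 0.03. *CDC42*, a small GTPase, was the one over 2-fold apart: F1 and F2 list it at 0, M1 and M2 at 1.75 and 5.18 FPKM, and its unigene had no amphibian match.

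Transcription factors that act on the *BDNF* gene in mammals had a median of 0.32 over 15 genes tested, of which 7 had higher values in each female pool than in each male pool and 2 the reverse, beside 23.6% and 20.9% of all genes. That median was 0.20 without F1, 0.18 without M1 and 0.16 with bird matches kept, and with a mean of at least 5 FPKM it was 0.29, below the 0.55 of the other ligands. *NPAS4*, which neuronal activity switches on and which drives *BDNF* in rodents, had 20.0 (F1) and 12.8 FPKM (F2) against 7.56 (M1) and 8.07 FPKM (M2). Its log2 difference was 0.99 (SE 0.24, adjusted p = 0.221 in limma), and without F1 it was 0.68. *BHLHE40*, a repressor, had 10.9 (F1) and 24.6 FPKM (F2) against 8.46 (M1) and 7.70 FPKM (M2), and its log2 difference was 0.98 (SE 0.39, adjusted p = 0.424 in limma), which was 0.42 without F2. *SRF* leaned to males, at 0.459 and 0.657 FPKM against 1.18 and 2.85 FPKM. Its log2 difference was -1.17, and -0.77 with amphibian matches alone. *MEF2C*, another factor that neuronal activity engages, was carried by a unigene without an amphibian match. It had 22.5 (F1) and 18.5 FPKM (F2) against 13.2 (M1) and 19.6 FPKM (M2), again with F1 highest and M1 lowest. This order, chosen after the values were seen, held for 4 of the 15, beside 11.9% of all pathway genes tested. *ARNT2*, the most abundant of the list and a partner of NPAS4, was between 41.7 and 48.6 FPKM.

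Feedback inhibitors of receptor tyrosine kinases had a median of 0.10 over 21 genes tested, of which 7 were without overlap on the female side and 2 on the male side, where all genes had shares of 23.6% and 20.9%. *ERRFI1*, an inhibitor of the EGF receptor family, was the one over 2-fold apart, with 4.81 (F1) and 6.33 FPKM (F2) against 2.12 (M1) and 2.62 FPKM (M2). Its log2 difference was 1.07 (SE 0.22, adjusted p = 0.162 in limma). It was 0.89 with amphibian matches alone and 0.83 with the most abundant or the longest unigene, so its size rested in part on the unigenes summed. The phosphatase *DUSP1*, which switches off MAP kinases, varied within each sex, with 18.1 (F1) and 44.1 FPKM (F2) in females and 28.1 (M1) and 8.40 FPKM (M2) in males. *PTPRS*, a receptor phosphatase and the most abundant of the list, was between 41.9 and 54.9 FPKM.

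**Figure D4:**
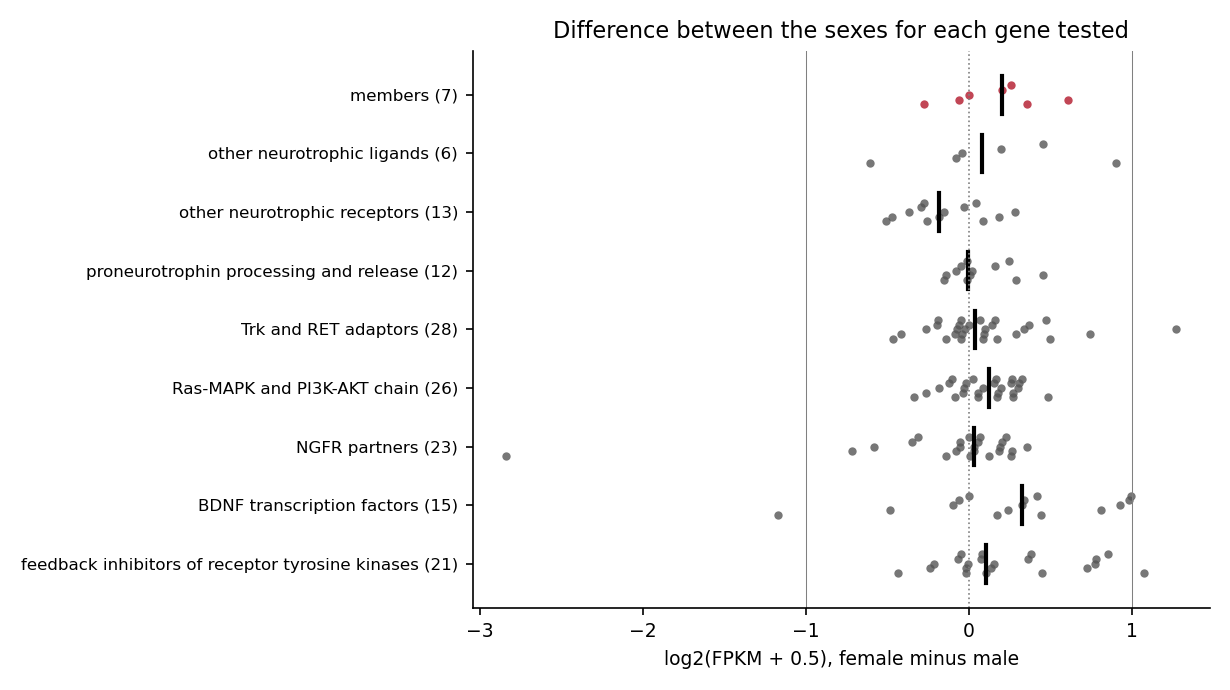
Difference between the sexes, female minus male on the log2(FPKM + 0.5) scale, of each gene tested among the members (red) and in the 8 pathway lists (grey), with the number tested in brackets; thick bars are medians and thin vertical lines mark 2-fold. Medians lie between -0.18 (other receptors) and 0.32 (factors that act on the *BDNF* gene), and the 7 members lie within 2-fold.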

How the data were processed

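Brain tissue of *O. tormota* was measured by RNA-Seq in 4 pooled libraries. Per the paper, the authors filtered reads with NGS QC Toolkit, assembled all libraries with Trinity and TGICL, and aligned each library with Bowtie2. The labels name Salmon among the tools, and which one made the values is not settled. The FPKM values were used as deposited by the authors. Reads per gene were not recovered from these values.

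Gene symbols were read from the Swiss-Prot descriptions (final -a or -b dropped). Of 35944 unigenes with a symbol, 4901 with a *Gallus* or *Meleagris* match were dropped and FPKM was summed per symbol. The linear model of log2(FPKM + 0.5) came from limma 3.58.1 under R 4.3.3 (eBayes with a trend, sex as the only term, residual degrees of freedom 2, prior 2.59), with Benjamini-Hochberg adjustment, after checks on simulated data. Fold counts used 0.5 added to the sex means. Python 3.11.15 with pandas 2.3.3 and matplotlib 3.10.9 served for tables and plots.

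Genes were named by a rule: the 8 members, up to 4 genes per list with the highest mean, genes over 2-fold apart without overlap, and the 5 most like *BDNF*. Others are said to be named after their values were seen. The members and lists were chosen with earlier results of these data known. Alternatives covered the number added, scaling, filters, limma's prior, the replicate block, each pool left out, and the choice of unigenes. The pool numbers are names given to random groups and pair nothing by design. Some genes of the lists are counted but not reported here by name.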

Additional observations from a re-analysis of the deposited data

How the results depend on the processing

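*BDNF*, *NTRK2*, *NTRK3* and *RET* kept the sign of their difference in all 17 or 18 alternatives run for each, and no member was called in any. For *BDNF*, *NTRK2* and *RET* most of these could not have turned the sign. Filters, prior and block leave the estimate of any gene tested as it was. Each of these genes has a single unigene, so the choice of unigenes left it unchanged too. Their pools did not overlap between the sexes, so leaving out a pool could not turn it either. *BDNF* ranged from 0.32 to 0.89 (adjusted p from 0.138 to 0.823) and *NTRK2* from 0.17 to 0.54 (adjusted p from 0.248 to 0.80). With 1 pool left out, *NTF3* ranged from -0.069 (without F1) to 0.58, *NGFR* from -0.127 to 0.0096 (without M2) and *GFRA1* from -0.070 to 0.069 (above 0 without F1 or without M1). A lone pool was taken to vary like the other sex.

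Against 0 genes called, limma called 305 with 0.1 added, 289 without a trend, 25 with a robust prior, 371 with bird matches kept, 32 with the most abundant and 53 with the longest unigene per gene. It called 0 to 264 with 1 pool left out (264 without M1 and 264 without M2), and 0 with the replicate block, where *BDNF* had an adjusted p of 0.668. Pools with the same number deviated in opposite directions (r = -0.254 across genes), and with the crossed pairing, added after seeing the data, 37 genes were called. For single unigenes the count was 1251 without a trend and 0 to 1385 with 1 pool left out (1373 without M1). Against 229 genes over 2-fold on the female side and 493 on the male side, the counts were 586 and 1713 without a filter, 107 and 55 with a mean of at least 5 FPKM, 140 and 114 with amphibian matches alone, 756 and 824 at 1.5-fold and 75 and 247 at 4-fold. The male count was 310 with the longest unigene, and leaving out a pool gave 197 to 413 and 450 to 759. *CDC42* was called in 3 of its 16 alternatives. The causes were not tested. Of 162 list medians under alternatives, 38 moved by over 1 SD between pools.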
